A study of Mus musculus with 9 samples.

Results

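The surface proteins by which fibroblasts are sorted and named were read here through 9 genes: *Thy1*, *Cd34*, *Cd248*, *Pi16*, *Dpp4*, *Ly6a*, *Pdpn*, *Fap* and *Pdgfrb*. They were taken by symbol and make up 9 of the 54534 genes listed for the mouse knee libraries. All 9 were found in each of the 9 libraries.

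The cells came from knees of Gdf5-Cre;Tom;Pdgfrα-H2BGFP mice aged 11 to 12 weeks. In these mice a Cre driven by *Gdf5* regulatory sequence, active in the embryonic joint interzone, leaves a lasting tdTomato (Tom) label, and the *Pdgfrα* promoter drives a nuclear green fluorescent protein (GFP). Dissociated cells were sorted into Tom+ cells (*Gdf5*-lineage) and Tom-GFP+ cells (*Pdgfrα* reporter on, outside that lineage), and each sort was sequenced by droplet single-cell RNA-seq with 5' chemistry. Every mouse carried all the alleles. Steady-state mice were 11 weeks old and injured-state mice 12 weeks old, so age moved with state as well. The steady-state groups had no operation, with 2 Tom+ libraries and 1 Tom-GFP+ library. The injured-state groups were taken 6 days after the right knee was opened on the medial side of the patella and the cartilage of the trochlear groove was scratched through its full thickness, with 4 Tom+ and 2 Tom-GFP+ libraries. There was no group with the joint opened and the cartilage left intact, so the effect of the scratch and that of the surgery cannot be told apart. Tom+ libraries of a state came from separate mice. The Tom-GFP+ libraries came from mice that had also given Tom+ libraries, but which library matches which was not stated, and the tests below treat them as independent.

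Fibroblast surface markers are mostly glycoproteins of the outer membrane that take part in adhesion, matrix turnover and signalling. In synovium, *Thy1* (CD90) is the usual mark of the sublining connective tissue, and the lining fibroblast-like synoviocytes (FLS), which make the lubricant encoded by *Prg4*, lack it. *Cd34*, *Pi16*, *Dpp4* and *Ly6a* (Sca-1) are known for marking adventitial, progenitor-like fibroblasts in many mouse tissues, often called universal fibroblasts, while *Fap* and *Pdpn* are known as markers of activated stroma in inflamed joints and tumours. *Pdgfrb* encodes a growth factor receptor shared by fibroblasts and the mural cells of vessels.

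Of 5161 barcodes, 4788 passed filters, with 2866464 to 15033902 unique molecular identifiers (UMIs) per library. The median cell held 8050.5 to 8647 UMIs in the steady-state libraries and 12223 to 18567 UMIs in the injured-state libraries. Cells were placed in classes by marker lists that hold none of the 9 genes: 3094 cells were sublining fibroblasts, 745 lining fibroblasts, 216 tenocytes, 138 osteoblasts, 106 immune cells, 89 mural cells (all in Tom+ libraries), 74 chondrocytes and 49 adipocytes. A further 173 cells were high in the lining list without meeting its gate and are called *Prg4*-high cells below. The sublining class had no list of its own and took in cells that met no other gate and were not *Prg4*-high. These cells also had to carry fibroblast collagen and proteoglycan transcripts (*Col1a1*, *Col1a2*, *Col3a1*, *Dcn* and *Lum*). Those transcripts summed to 20649 to 43939 UMIs out of 1000000 of the class (CPM) over the libraries. The name of the class therefore does not rest on a mark of the sublining itself. Barcode sequences shared by 2 libraries numbered 12. The gene lists of all 3 steady-state libraries and of Tom+ injured replicate 1 had an older format than those of the other 5 libraries, so state and format cannot be told apart in the Tom-GFP+ sort.

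Among the 9 genes, *Dpp4* (GRCm38, chromosome 2, 62330073 to 62412231, minus strand) and its closest relative *Fap* (chromosome 2, 62500943 to 62574075, minus strand) lie 88711 bases apart. A promoter was found in RefSeq (GRCm38.p6) for *Cd34*, *Pi16*, *Dpp4* and *Pdpn*. The 250 bases before the start are shown for *Cd34* and *Dpp4*, which fell after injury, and for *Pdpn*, which was not called, so that the upstream sequences can be set beside the values. Capitals mark matches to any of 6 motifs searched on both strands (the TATA box TATAAA, the GC box GGGCGG, the CCAAT box, the AP-1 site TGANTCA, the TEAD site GGAATG and the E-box CACGTG). The windows are chr1:194938571-194938820 on the plus strand for *Cd34*, chr2:62412232-62412481 on the minus strand for *Dpp4* and chr4:143299565-143299814 on the minus strand for *Pdpn*.
Cd34: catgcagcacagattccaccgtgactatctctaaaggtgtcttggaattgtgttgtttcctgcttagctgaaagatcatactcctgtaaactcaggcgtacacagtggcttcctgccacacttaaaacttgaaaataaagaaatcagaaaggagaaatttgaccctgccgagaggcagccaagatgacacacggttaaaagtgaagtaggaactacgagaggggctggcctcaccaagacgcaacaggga
Dpp4: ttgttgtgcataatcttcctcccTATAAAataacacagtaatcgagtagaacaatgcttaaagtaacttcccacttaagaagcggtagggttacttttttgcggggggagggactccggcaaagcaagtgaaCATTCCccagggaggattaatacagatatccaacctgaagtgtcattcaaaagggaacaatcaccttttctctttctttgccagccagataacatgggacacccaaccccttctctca
Pdpn: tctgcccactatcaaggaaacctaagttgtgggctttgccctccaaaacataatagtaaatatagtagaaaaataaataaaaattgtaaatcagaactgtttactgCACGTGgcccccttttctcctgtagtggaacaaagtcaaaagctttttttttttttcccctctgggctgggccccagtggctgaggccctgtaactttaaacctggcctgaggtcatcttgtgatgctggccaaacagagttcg
The *Cd34* window held none of the 6 motifs. The *Dpp4* window held TATAAA 227 bases before the start, far from where such a box usually sits, and the TEAD site on the other strand (CATTCC) at 118 bases. The *Pdpn* window held CACGTG at 144 bases. The *Pi16* window lies inside the gene as GENCODE places it and is not printed. Among 32851 promoter windows of this length, 12.4% held the TATA box, 12.6% the TEAD site, 33.8% the CCAAT box, 6.02% the E-box, 32.7% the GC box and 6.75% the AP-1 site.

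After injury, 4 of the 9 genes made up a smaller share of the UMIs in the sublining fibroblasts of the *Gdf5*-lineage, and none of the 9 rose. *Cd34* fell 2.89-fold, *Cd248* 2.01-fold, *Dpp4* 3.55-fold and *Pi16* 4.90-fold. *Thy1* was 1.56-fold lower at an adjusted p just above the threshold, and *Ly6a*, *Pdpn*, *Fap* and *Pdgfrb* did not pass. In edgeR's quasi-likelihood test on UMIs summed per library, 8.75% of the 13097 genes tested were lower and 7.86% were higher at a Benjamini-Hochberg adjusted p under 0.05.

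Among the markers of progenitor-like fibroblasts, *Cd34*, a sialomucin, stood at 1074 and 1169 CPM in the sublining fibroblasts of the Tom+ steady-state libraries. In Tom+ injured replicates 1 to 4 it stood at 282, 303, 440 and 467 CPM. The highest injured library lay well below the lowest steady-state library, and the log2 fold change was -1.53 (SE 0.23, edgeR adjusted p = 0.0055). *Pi16*, a secreted or membrane-anchored peptidase inhibitor, went from 1442 and 986 CPM to 38.1, 233, 242 and 439 CPM, without overlap but with a wide spread among the injured libraries (log2 fold change -2.29, SE 0.65, edgeR adjusted p = 0.042). The low value of *Pi16* in Tom+ injured replicate 1 went with the highest share of activation-marker cells described below. *Dpp4*, a dipeptidyl peptidase of the cell surface, was low throughout, at 44.5 and 34.3 CPM in steady state against 5.53, 8.81, 11.0 and 18.2 CPM after injury (log2 fold change -1.83, SE 0.38, edgeR adjusted p = 0.016). Its lowest value rests on 49 UMIs. *Ly6a*, a small GPI-anchored protein and the most counted of the 9 genes, was at 4754 and 3826 CPM in steady state and at 2234, 1984, 3407 and 3811 CPM after injury. The injured values lay below the steady-state values by a margin that was small beside their own spread (log2 fold change -0.53, SE 0.30, edgeR adjusted p = 0.26). *Ly6a* belongs to a family of related neighbouring genes, and whether any of its reads were lost or assigned to relatives was not tested.

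Among the glycoproteins of adhesion and matrix, *Thy1* stood at 375 and 258 CPM in steady state and at 171, 181, 210 and 219 CPM after injury. All 4 injured libraries were below both steady-state libraries, and the difference missed the threshold narrowly (log2 fold change -0.64, SE 0.19, edgeR adjusted p = 0.050). DESeq2 gave an adjusted p of 0.023 for the same sums, so the call for *Thy1* turned on the tool. *Cd248* (endosialin), a collagen-binding receptor, went from 423 and 541 CPM to 174, 209, 290 and 251 CPM, again without overlap (log2 fold change -1.01, SE 0.23, edgeR adjusted p = 0.022). *Pdpn* (podoplanin), which links the membrane to the actin cytoskeleton, was at 211 and 166 CPM in steady state and at 144, 145, 200 and 178 CPM after injury. Its groups overlapped, and the log2 fold change was -0.13 (95% interval -0.61 to 0.36).

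The protease and the growth factor receptor did not move beyond the spread of the libraries. *Fap*, a surface serine protease, was at 113 and 90.6 CPM in steady state and ranged from 54.3 to 160 CPM after injury, on both sides of the steady-state values. *Pdgfrb* was at 56.5 and 61.4 CPM in steady state, and after injury at 52.5, 65.0, 52.8 and 92.9 CPM. Both had a log2 fold change of 0.21, with 95% intervals of -0.73 to 1.15 for *Fap* and -0.44 to 0.86 for *Pdgfrb*, wide enough to hold changes in either direction.

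**Figure D1:**
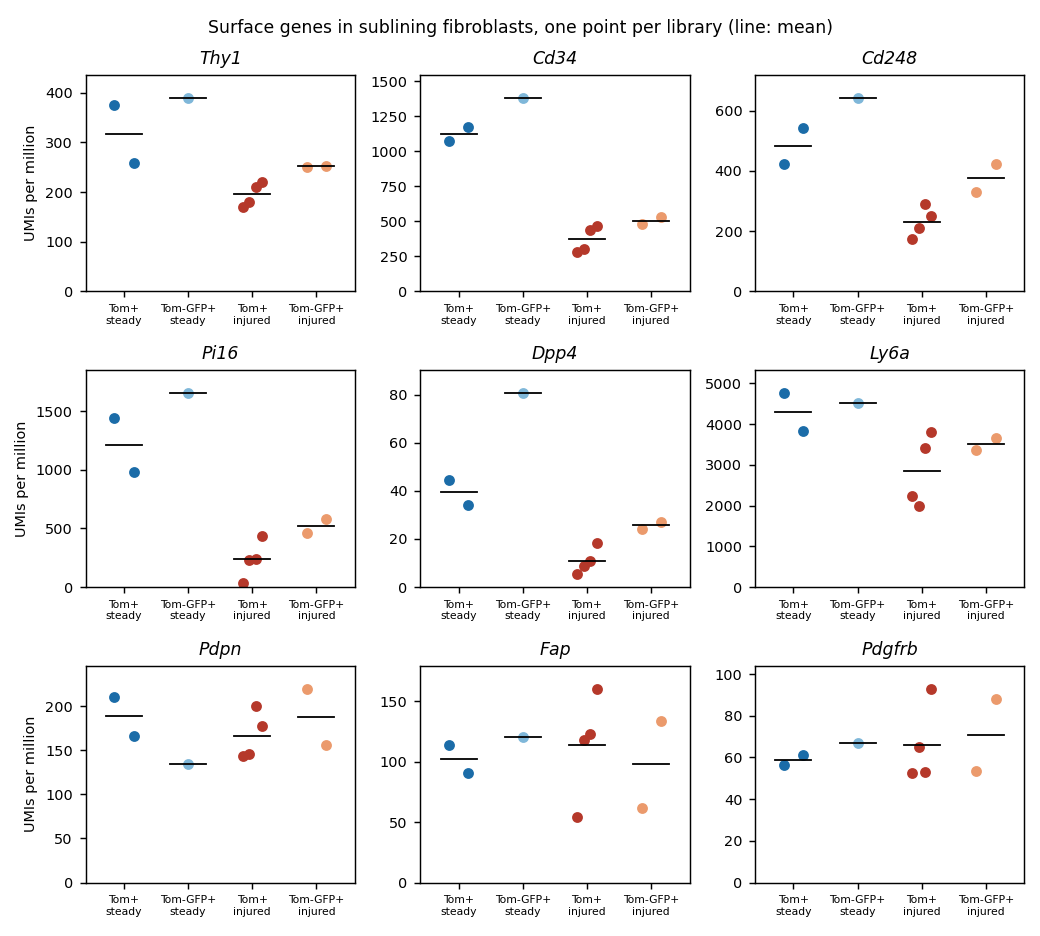
Level of each of the 9 genes in sublining fibroblasts (vertical axis, CPM on a linear scale from 0), with 1 point per library in the 4 groups of sort and state and a line at the mean. All 6 injured libraries lie below all 3 steady-state libraries for *Cd34*, *Thy1*, *Pi16*, *Dpp4* and *Ly6a*, while the points of *Pdpn*, *Fap* and *Pdgfrb* overlap.

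The 4 falling genes did not rest equally on all libraries. *Cd34* stayed past the threshold whichever of the 9 libraries was left out, with log2 fold changes from -1.75 to -1.45. Without Tom+ steady replicate 1, the adjusted p was 0.12 for *Dpp4*, 0.21 for *Pi16* and 0.081 for *Cd248*, and without Tom+ steady replicate 2 it was 0.066, 0.12 and 0.16. *Pi16* also lost its call without Tom+ injured replicate 2 (0.089) or 3 (0.081) and without either Tom-GFP+ injured library (0.055 and 0.058), and *Cd248* without Tom+ injured replicate 2 (0.052). The number of genes called fell from 2176 to 308 at the lowest when 1 library was left out, so fewer calls are made among all genes as well.

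Within the older gene list format alone, Tom+ injured replicate 1 can be set beside both Tom+ steady-state libraries. It had 282 CPM of *Cd34* against 1074 and 1169 CPM, 171 CPM of *Thy1* against 375 and 258 CPM, and 38.1 CPM of *Pi16* against 1442 and 986 CPM. Those differences are in the direction of the pooled comparison and rest on 1 injured library, with no test. Signs of dissociation stress were lower in most injured libraries but overlapped between the states. *Fos*, *Jun*, *Junb*, *Egr1*, *Hspa1a* and *Hspa1b* summed to 4835 to 8057 CPM in the 3 steady-state libraries and to 1775 to 5070 CPM in the 6 injured libraries. Cell-cycle transcripts summed to 0.918 to 1.75 CPM in steady state and 16.2 to 419 CPM after injury. With cells in cycle left out, every call on the 9 genes in this comparison was as before. The part of the stress genes in the result was not tested. Of transcripts of other cell types in the class, 7 immune markers summed to 1.75 to 23.9 CPM in steady state and 4.93 to 42.6 CPM after injury, and 7 endothelial markers to 1.38 to 3.86 and 1.51 to 6.08 CPM. Tenocyte markers summed to 112 to 218 CPM in steady state and 158 to 578 CPM after injury, and chondrocyte markers to 4.13 to 26.1 and 17.6 to 146 CPM, both overlapping between the states and highest in Tom+ injured replicates 1 and 2. Osteoblast markers (70.2 to 168 and 19.1 to 164 CPM) and mural markers (14.2 to 82.8 and 12.5 to 53.1 CPM) overlapped too. The part of these transcripts in the result was not tested.

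In the Tom-GFP+ sort the same genes were lower after injury, but no call was made. *Cd34* was at 1380 CPM in the steady-state library and at 478 and 529 CPM after injury (log2 fold change -1.37, SE 0.33, edgeR adjusted p = 0.061). *Thy1* was at 390 CPM against 250 and 253 CPM (log2 fold change -0.55, adjusted p = 0.27). *Pi16* was at 1655 CPM against 460 and 578 CPM (adjusted p = 0.33), *Dpp4* at 80.7 against 24.3 and 27.1 CPM (adjusted p = 0.11), and *Cd248* at 643 against 329 and 424 CPM (adjusted p = 0.25). *Pdpn* was the member with the largest value in the other direction, at 135 CPM in steady state and 220 and 156 CPM after injury (log2 fold change 0.56, SE 0.31, edgeR adjusted p = 0.32). This comparison called 1.6% of genes lower and 0.817% higher, with 0 of the 9 genes among them. The steady-state value is that of 1 library, whose counting interval (exact Poisson, 95%, counting error only) was 1338 to 1424 CPM for *Cd34* and 367 to 413 CPM for *Thy1*, and the spread between libraries was taken from the other groups. With DESeq2 the adjusted p for *Cd34* in this sort was 0.0062.

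The difference between the sorts in their response to injury was tested directly and called 0 of 13097 genes (0% in each direction), with 267 genes at an unadjusted p under 0.05 and 1 gene called by DESeq2. For the 9 genes the unadjusted p ran from 0.099 for *Pdpn*, whose change was 0.69 higher on the log2 scale in Tom-GFP+ cells (95% interval -0.16 to 1.54), to 0.92 for *Pdgfrb*. For *Cd34* the interval of that difference was -0.79 to 1.11 and for *Thy1* -0.67 to 0.86, and both hold differences in either direction.

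Between the sorts within a state, none of the 9 genes was called. In the injured state, 0.00764% of genes were higher and 0.0153% lower in Tom+ than in Tom-GFP+ sublining fibroblasts. The largest member differences were those of *Dpp4* (log2 -1.25, SE 0.38, edgeR adjusted p = 0.43) and *Pi16* (log2 -1.11, SE 0.65, edgeR adjusted p = 0.99), followed by *Cd248* (log2 -0.69, SE 0.23, edgeR adjusted p = 0.54). All 3 were lower in all 4 Tom+ libraries than in the 2 Tom-GFP+ libraries, but the share of all genes separated in this way was not counted. In the steady state, 0% of genes were higher and 0.0153% lower, and the adjusted p of each of the 9 genes was 1. *Dpp4* again had the largest value among them, at 44.5 and 34.3 CPM in the Tom+ libraries and 80.7 CPM in the Tom-GFP+ library.

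Over both sorts, 5 of the 9 genes (*Thy1*, *Cd34*, *Pi16*, *Dpp4* and *Ly6a*) had all 6 injured libraries below all 3 steady-state libraries, and 0 had all of them above. Of all genes tested, 16.4% lay entirely lower and 14.2% entirely higher in this way. In the Tom+ libraries alone *Cd248* joined them, which made 6 genes lower, against 23.6% of all genes lower and 22% higher.

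**Figure D2:**
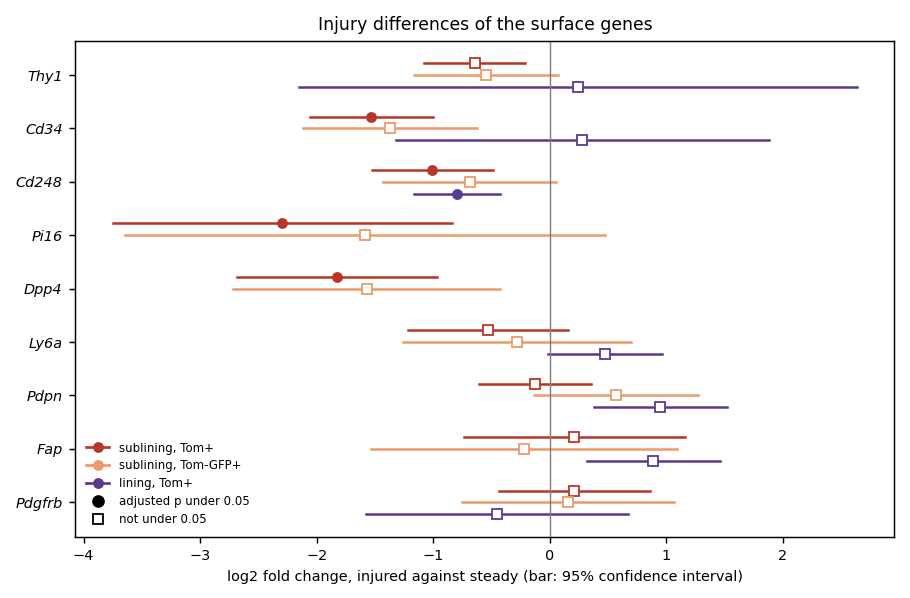
Log2 fold change, injured against steady state, of the 9 genes in Tom+ sublining, Tom-GFP+ sublining and Tom+ lining fibroblasts with 95% intervals from the edgeR fit (bars), filled circles marking an adjusted p under 0.05 and open squares the rest. The intervals of *Cd34*, *Dpp4*, *Pi16*, *Cd248* and *Thy1* lie below 0 in Tom+ sublining cells, and in the lining those of *Pdpn* and *Fap* lie above 0.

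The sublining class is itself a mixture whose make-up differed by state. Cells with universal fibroblast markers (*Sema3c*, *Anxa3*, *Limch1*, *Efhd1*, *Ackr3*, *Pcolce2* and *Adgrd1*) made up 35.2% and 34.6% of it in the 2 Tom+ libraries of the steady state and 35.6% in the Tom-GFP+ one. They made up 3.29% to 8.50% in the Tom+ injured libraries and 9.74% and 15.5% in the Tom-GFP+ injured libraries. Cells with activation markers (*Cthrc1*, *Postn*, *Tnc*, *Mdk* and *Adam12*) were 0% of the class in all 3 steady-state libraries and 29.0% to 75.1% after injury, the highest share being that of Tom+ injured replicate 1. The activation markers were chosen as marks of injury-induced fibroblasts, so a higher share after injury was built into that choice. The shares also depend on cuts set on the markers of each gate and were not tested. A lower level of a gene in the whole class can therefore come with fewer cells of a type or with less RNA per cell, and the class sums cannot tell these apart.

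Inside the sublining, the progenitor-type markers were concentrated in the universal-marker cells. Against the other sublining cells of the same library (9 libraries, library as a block), *Pi16* was 16.5-fold higher, *Dpp4* 7.87-fold, *Cd248* 3.50-fold, *Cd34* 2.76-fold, *Thy1* 2.60-fold and *Ly6a* 1.85-fold. *Pdgfrb* was 1.64-fold lower, and *Pdpn* and *Fap* did not pass. Thus 6 of the 9 genes were higher and 1 lower, where 7.98% of 10707 genes were higher and 11.5% lower. The gates use other genes of the same cells, so these differences describe how the 9 genes go with the gate genes. The gate genes were chosen as marks of universal fibroblasts, which *Cd34*, *Pi16*, *Dpp4* and *Ly6a* are also known to mark. Higher values of those genes were therefore partly built into that choice. In the injured libraries the other cells included activation-marker cells, which the steady-state libraries lacked. Each fold change therefore pools unlike contrasts. The edgeR adjusted p was 2.6e-09 for *Pi16*, 2.2e-07 for *Thy1* and 0.0051 for *Pdgfrb*.

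The activation-marker cells were low in most of the 9 genes. Against the other sublining cells of the same injured library (6 libraries), 7 were lower: *Pi16* 12.4-fold, *Dpp4* 2.77-fold, *Cd34* 1.95-fold, *Thy1* 1.69-fold, *Cd248* 1.67-fold, *Fap* 1.61-fold and *Ly6a* 1.44-fold. *Pdpn* (log2 -0.25, edgeR adjusted p = 0.083) and *Pdgfrb* (log2 -0.12, edgeR adjusted p = 0.52) did not pass, and 0 of the 9 genes were higher. Of 11194 genes, 9.13% were lower and 7.3% higher. The other cells included the universal-marker cells, themselves high in *Pi16*, *Dpp4*, *Cd34*, *Thy1*, *Cd248* and *Ly6a*. Their part in these differences was not tested. Beside cells of neither gate alone, the CPM ranges over the 6 libraries overlapped for each of the 7 genes. The means were lower in activation-marker cells, at 280 against 440 CPM for *Cd34* and 159 against 208 CPM for *Thy1*. *Fap*, whose product is widely used to stain activated fibroblasts, thus made up a smaller share of the UMIs in the cells with *Postn*, *Tnc* and *Cthrc1*. It was at 48.6, 90.0, 70.8 and 139 CPM in the Tom+ and 41.2 and 128 CPM in the Tom-GFP+ injured libraries, against 86.9, 151, 155, 178, 90.4 and 154 CPM in cells of neither gate. In each of the 6 libraries the activation-marker cells had the lower CPM. Their median depth was greater, at 12626 to 20915 UMIs over the 6 libraries against 7009 to 14104 UMIs in cells of neither gate. Amounts per cell were not compared.

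Read within a gate, *Thy1* and *Cd34* differed. *Thy1* in universal-marker cells was at 546, 367 and 500 CPM in steady state and at 659, 525, 668, 442, 607 and 658 CPM after injury, so that these ranges overlapped and 4 of the 6 injured libraries lay above every steady-state one. In cells of neither gate it was at 267, 184 and 316 CPM against 243, 179, 220, 230, 172 and 204 CPM, which also overlapped. *Cd34* stood lower after injury in each of these gates, at 1617, 1774 and 1838 CPM against 1031, 998, 1016, 1297, 1314 and 1378 CPM in universal-marker cells, and 731, 760 and 1074 CPM against 334, 355, 411, 451, 592 and 500 CPM in cells of neither gate. Every injured library lay below every steady-state library in both gates, and the share of all genes separated so within a gate was not counted. The marker sums of 578 sublining cells lay within 1.5 times of the universal cut, and those of 587 within 1.5 times of the activation cut. Cells of neither gate can therefore include cells just short of a cut, and their part in these values was not tested.

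The fits within gates were added after the values had been seen. Over cells of neither gate, Tom+ injured against steady, *Cd34* was lower (log2 -0.96, SE 0.19, edgeR adjusted p = 0.013), *Thy1* had a log2 fold change of -0.07 (adjusted p = 0.86), and *Cd248* one of -0.34 (adjusted p = 0.40). *Pi16* and *Dpp4* had positive values there, 0.93 and 0.47, that did not pass (edgeR adjusted p = 0.27 and 0.46). With the activation-marker cells left out and the universal-marker cells kept, *Cd34* (log2 -1.31), *Dpp4* (-1.29), *Pi16* (-1.64) and *Cd248* (-0.81) still passed, and *Thy1* did not (-0.34, edgeR adjusted p = 0.32). Among universal-marker cells alone, of which each injured Tom+ library held few, none of the 9 genes passed, and the log2 fold changes were -0.72 for *Cd34* and 0.24 for *Thy1* (edgeR adjusted p = 0.13 and 0.74).

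**Figure D3:**
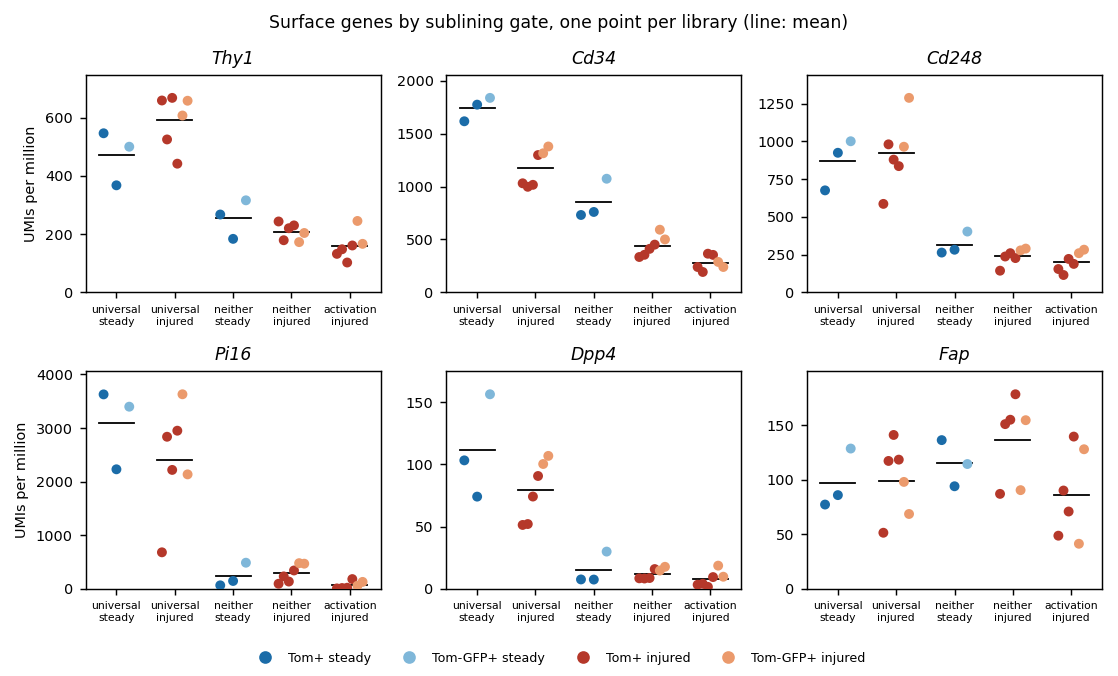
Level of 6 of the genes (CPM, linear axis from 0) in sublining fibroblasts with universal markers, with neither marker set or with activation markers, by state, with 1 point per library coloured by sort and state and a line at the mean. *Cd34* is lower after injury inside the universal and neither gates, whereas the *Thy1* points of both states overlap inside each of these gates.

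At the level of single cells, the share of sublining fibroblasts with UMIs of both *Thy1* and *Cd34* was lower after injury. To make depths equal, each cell was thinned to 3000 UMIs, and cells with fewer were left out, which kept 191 to 425 cells per library. Cells with both genes were 45.8% and 35.2% in the 2 Tom+ libraries of the steady state and 47.2% in the Tom-GFP+ one, against 21.4%, 15.5%, 25.5% and 26.3% in the Tom+ and 31.9% and 37.2% in the Tom-GFP+ injured libraries. Cells with UMIs of neither gene were 11.6%, 17.3% and 5.31% in steady state and 43.5%, 41.2%, 31.6%, 28.5%, 22% and 24.6% after injury. The states overlapped in the share with both genes and did not overlap in the share with neither.

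The 2 genes contributed unequally. Cells with *Cd34* alone were 34.9% to 43.4% of the class in steady state and 24.7% to 36.9% after injury, while cells with *Thy1* alone were 4.13% to 7.63% and 9.16% to 16.2%, entirely higher after injury. The share with a *Cd34* UMI went from 78.0% to 90.6% in steady state to 42.6% to 68.8% after injury, and that with a *Thy1* UMI from 39.8% to 53.4% to 31.8% to 48.2%. Without thinning, 89.7% of 1004 steady-state cells and 80.2% of 2090 injured cells had *Cd34* UMIs, and 68.3% and 65.6% had *Thy1* UMIs, at median depths of 8147 and 13242 UMIs. Over the 9 genes, the mean number detected in a thinned cell was 3.74 to 4.50 in steady state and 2.67 to 3.83 after injury. In thinned immune cells of 2 injured libraries, *Thy1*, *Cd34*, *Cd248*, *Dpp4*, *Fap* and *Pdgfrb* had UMIs in 0 of 62 cells. That allows a share of up to 4.84%. *Pi16*, *Ly6a* and *Pdpn* had UMIs in 8.06%, 12.9% and 25.8% of the same cells.

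**Figure D4:**
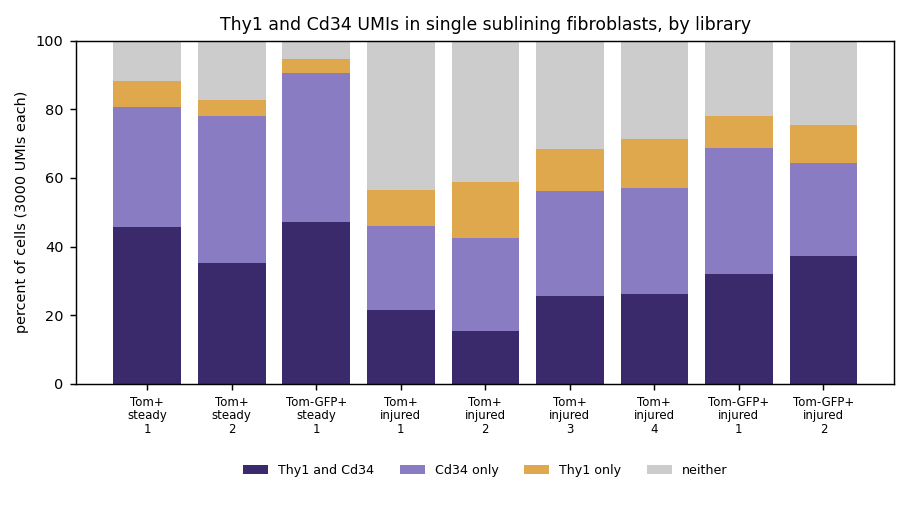
Share of sublining fibroblasts (percent of cells thinned to 3000 UMIs, linear axis from 0) with UMIs of *Thy1* and *Cd34*, *Thy1* alone, *Cd34* alone or neither, for each of the 9 libraries. The share with neither lies between 5.31% and 17.3% in the steady-state libraries and between 22% and 43.5% in the injured ones.

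Over both states together, the lining fibroblasts differed from the sublining in 8 of the 9 genes. Against the sublining cells of the same library (8 libraries), *Thy1* was 39.7-fold lower, *Pi16* 75.5-fold, *Cd34* 16.1-fold, *Dpp4* 8.37-fold and *Pdgfrb* 5.68-fold lower, with edgeR adjusted p from 4.4e-10 for *Pi16* to 7.2e-07 for *Cd34*. *Pdpn* and *Ly6a* were lower by smaller amounts (log2 -0.48 and -0.45, edgeR adjusted p = 0.042 and 0.032) and *Fap* was higher (log2 0.60, SE 0.22, edgeR adjusted p = 0.045). *Cd248* showed no call (log2 0.10, 95% interval -0.12 to 0.32). Of 12244 genes, 21.7% were lower and 16.7% higher in the lining. The gates use other genes of the same cells here too. *Pdpn* was at 75.7 to 101 CPM in the steady-state lining against 166 to 211 CPM in the Tom+ steady-state sublining. After injury its ranges overlapped (117 to 218 and 144 to 220 CPM). *Fap* overlapped in steady state (67.2 to 143 and 90.6 to 113 CPM). After injury it was at 164 to 223 CPM in the lining and 54.3 to 160 CPM in the sublining. Whether these differences depend on state was not tested. The calls of *Fap*, *Pdpn* and *Ly6a* were lost in some settings: *Fap* with DESeq2 (adjusted p = 0.068), *Pdpn* with the strict cell filter (0.062) and *Ly6a* with classes taken from clusters (0.23). Each of the 3 was also lost in most of the 8 fits that left out 1 library: *Fap* in 5, *Pdpn* in 6 and *Ly6a* in 5. Examples were *Fap* without Tom+ injured replicate 1 (0.086), and *Pdpn* (0.12) and *Ly6a* (0.11) without Tom+ steady replicate 1.

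In the lining, *Cd248* was the 1 member called after injury, and the difference between lining and sublining in response was not tested. *Cd248* fell 1.74-fold in Tom+ cells, from 550 and 517 CPM to 274, 326, 259 and 323 CPM (log2 -0.80, SE 0.17, edgeR adjusted p = 0.026), and it was 1 member lower and 0 higher among 7 tested, where 2.92% of 9563 genes were lower and 1.22% higher. *Pi16* and *Dpp4* had too few UMIs to be tested there. This call was lost without either Tom+ steady-state library (adjusted p = 0.21 and 0.13), without Tom+ injured replicate 3 (0.053) and without either Tom-GFP+ injured library (0.053 and 0.052).

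The genes with the highest positive values in the lining were *Pdpn* and *Fap*. *Pdpn* was at 101 and 75.7 CPM in steady-state lining cells and at 218, 168, 149 and 117 CPM after injury, with every injured library above both (log2 0.95, SE 0.26, edgeR adjusted p = 0.065). *Fap* was at 67.2 and 143 CPM against 223, 164, 200 and 178 CPM, also without overlap (log2 0.89, SE 0.26, edgeR adjusted p = 0.080). How many of all genes separated in this way in the lining was not counted. Neither of the 2 genes passed, and *Fap* did so with no filter on low counts (0.039), stricter gates (0.045), classes from clusters (0.045) and cells in cycle left out (0.032), and *Pdpn* with no filter (0.031) and classes from clusters (0.032). The share of thinned lining cells with a *Fap* UMI was 9.09% and 17.2% in steady state and 32.9% to 42.4% after injury. *Thy1* stayed at 2.37 to 10.4 CPM and *Cd34* at 14.6 to 97.9 CPM in the injured lining, *Cd34* being highest in Tom+ injured replicate 1. The steady-state lining rests on 22 and 30 cells, and the Tom-GFP+ steady-state library, with 3 lining cells, was not in this fit.

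Outside the fibroblasts, different classes were highest for different members. The levels below are each gene's own CPM across classes with at least 10 cells in a library, given as a description. *Thy1* after injury was highest in mural cells, the pericytes and smooth muscle of vessel walls, at 1614 and 1102 CPM (2 libraries), above the universal-marker fibroblasts at 442 to 668 CPM. *Pdgfrb*, by which pericytes are known, was also highest there, at 407 and 378 CPM against 61.4 to 98.6 CPM in fibroblasts of neither gate, the next class. *Cd248* in mural cells (363 and 231 CPM) overlapped with the lining (259 to 437 CPM). The same mural cells had almost no *Cd34* (1.96 and 0 CPM), *Pdpn* (1.96 and 0 CPM) or *Dpp4* (0 in both). In steady state the class held 15 cells, in which 14 UMIs of *Thy1* made 175 CPM and 1 UMI of *Cd248* made 12.5 CPM, while *Pdgfrb* stood at 325 CPM. After injury the 74 pooled mural cells had 1387, 305 and 387 CPM of these 3 genes.

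*Fap* was highest in osteoblasts, the bone-forming cells, at 252 and 169 CPM in steady state and 403 and 203 CPM after injury. In steady state this range lay above that of every other class, and after injury it overlapped with the lining (164 to 223 CPM). Osteoblasts had *Pdpn* at 50.4 and 42.2 CPM in steady state and at 318 and 158 CPM after injury, and *Cd34* at 12.6 and 5.63 CPM in steady state and at 0 CPM in both injured libraries with enough cells. Tenocytes, the cells of tendon and ligament, had *Thy1* at 300 and 339 CPM in steady state, which overlapped with sublining fibroblasts of neither gate, and at 77.0 to 220 CPM after injury. Their *Cd34* was at 300 and 329 CPM in steady state and 23.7 to 209 CPM after injury. *Prg4*-high cells outside the lining gate had *Thy1* at 23.5 to 79.3 CPM in the injured libraries, between the lining (2.37 to 10.4 CPM) and the osteoblasts (52.7 to 99.0 CPM, overlapping), and *Cd34* at 43.6 to 240 CPM. Chondrocytes had *Fap* at 26.4 to 166 CPM and *Thy1* at 0 CPM in all 3 libraries with at least 10 such cells.

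In the 100 immune cells of the injured libraries, 1 UMI each was found of *Thy1*, *Cd34* and *Cd248* and none of *Dpp4*. *Pdpn*, also known on some macrophages, was at 134 and 280 CPM in the Tom+ injured replicates 3 and 4 and at 12.6 CPM in Tom-GFP+ injured replicate 2. *Pi16* was at 25.2, 21.3 and 227 CPM in the same libraries, and 25% of immune cells had a *Pi16* UMI. In the 62 thinned cells, which came from Tom+ injured replicates 3 and 4 only, the share was 8.06%. The 2 shares are therefore over unlike sets of libraries. The thinned shares were 12.9% for *Ly6a* and 25.8% for *Pdpn*.

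**Figure D5:**
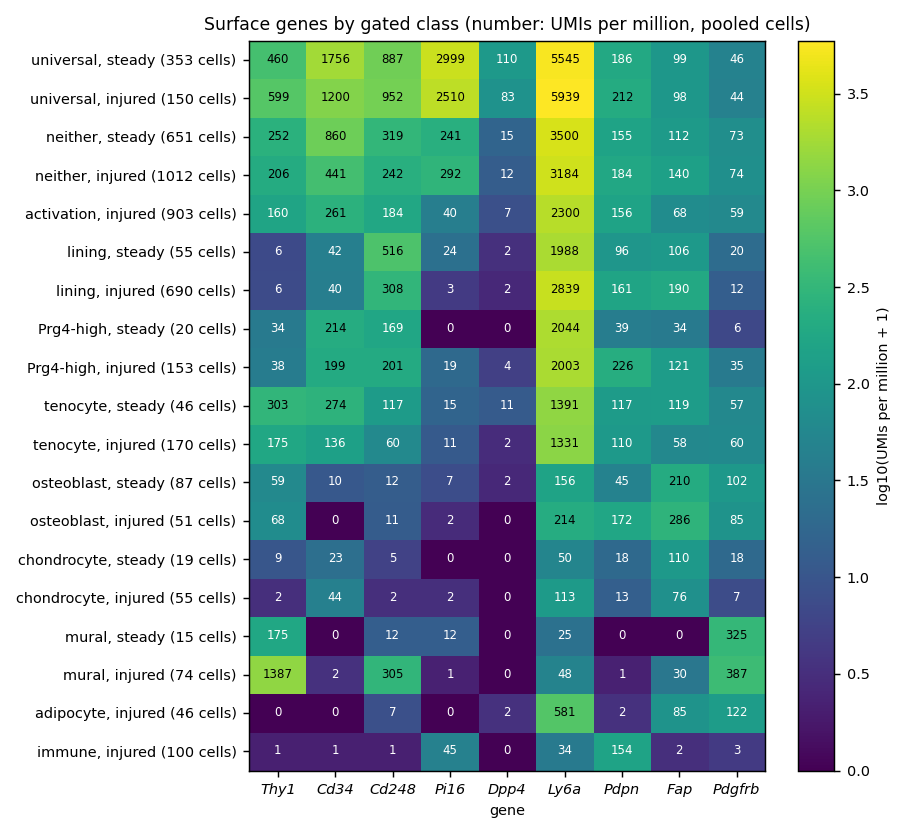
Heat map of the 9 genes (columns) in marker-gated classes by state (rows), coloured by log10(CPM + 1) over the pooled cells of a class, with the pooled CPM written in each cell and the number of cells beside each row. *Thy1* (1387 CPM) and *Pdgfrb* (387 CPM) peak in injured-state mural cells, *Fap* in osteoblasts, and *Pi16*, *Dpp4*, *Cd34*, *Cd248* and *Ly6a* in universal-marker fibroblasts.

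Ordered by mean level, universal-marker fibroblasts were the highest class for *Cd34*, *Cd248*, *Pi16*, *Dpp4* and *Ly6a* in both states, and in each case their range did not overlap with the next. For *Thy1* they were highest in steady state (367 to 546 CPM), above tenocytes (300 to 339 CPM), and in second place after mural cells in the injured state. For *Pdpn* the 8 highest classes after injury, from osteoblasts (158 and 318 CPM) down to tenocytes (58.9 to 186 CPM), each overlapped with the next, and for *Fap* the 9 highest did. *Pdgfrb* after injury fell off from mural cells to 6 classes that each overlapped with the next, with means from 74.9 CPM in fibroblasts of neither gate to 37.3 CPM in *Prg4*-high cells.

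Other surface proteins of stromal cells changed in both directions in the injured Tom+ sublining. Of 34 tested genes of a list of 38, 7 rose and 7 fell, and the list's median log2 fold change was -0.11 beside 0.04 over all genes, of which 7.86% rose and 8.75% fell. *Lrrc15*, a surface protein of matrix-producing fibroblasts, rose (log2 4.39, edgeR adjusted p = 0.00082), as did *Tnfrsf12a* (the TWEAK receptor, 1.89) and *Cd44* (the hyaluronan receptor, 1.76). *Lepr* (leptin receptor, -4.69), *Procr* (protein C receptor, -1.65) and *Cd55* (a complement regulator, -1.60) fell. In the Tom-GFP+ sublining, *Lrrc15* (7.19) and *Cd276* (1.97) rose and *Procr* (-1.35) fell, 3 of 34, where 0.817% of all genes rose and 1.6% fell. That steady state is 1 library, and how far the size for *Lrrc15* rests on low counts there was not tested.

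Relatives and partners of the 9 genes (family members, ligands and substrates, 35 listed) also changed in both directions in the injured Tom+ sublining. Of 28 tested, 3 rose and 3 fell there, against 7.86% and 8.75% of all genes (median log2 fold change -0.06 beside 0.04 over all genes). *Ly6c2* (-4.46), of the *Ly6a* family, *Thbd* (thrombomodulin, of the *Cd248* family, -3.33) and *Crispld1* (of the *Pi16* family, -2.11) fell. *Glipr1*, also of the *Pi16* family, rose by 7.2 on the log2 scale, *Ada* (adenosine deaminase) by 1.49 and *Pdgfa*, a ligand of PDGF receptors, by 1.33. The CPM of *Glipr1* is not given here, and how far its change rests on low steady-state counts was not tested. In the Tom-GFP+ sublining 2 of 28 fell, *Ly6c2* (-4.58) and *Thbd* (-2.42), and none rose. Of all genes, 1.6% fell and 0.817% rose there. In the Tom+ lining 2 of 22 fell, *Thbd* (-1.40) and the *Cd34* relative *Podxl2* (-1.66), and none rose. *Itga6* (-0.96) was the 1 surface gene called in the lining, of 28 tested. In that comparison 2.92% of all genes fell and 1.22% rose. Between the sorts and for the interaction, 0 genes of either list were called.

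The wider lists held calls across the gates as well, to be read beside the shares over all genes. In lining against sublining, 10 surface genes of 34 were higher and 15 lower (16.7% and 21.7% of all genes), among them *Itga6* (4.6), *Mme* (-6.07), *Lrrc15* (-5.25), *Cdh11* (-4.84), *Cd200* (-4.62) and *Lepr* (-3.86), and of 28 relatives 5 were higher and 12 lower, led by *Ly6h* (-6.82), *Ccl11* (-6.39) and *Crispld2* (-5.03). In universal-marker cells, 7 of 33 surface genes were higher and 11 lower (7.98% and 11.5% of all genes), with *Cd55* (3.15), *Procr* (2.45) and *Ptprj* (1.62) higher and *Cdh11* (-3.88), *Vcam1* (-2.52) and *Lepr* (-1.67) lower. Of 27 relatives, 6 were higher and 6 lower there, including *Thbd* (1.80) on the higher side and *Glipr1* (-3.08), *Crispld2* (-2.71) and *Crispld1* (-2.08) on the lower. In activation-marker cells, 5 of 33 surface genes were higher and 12 lower (7.3% and 9.13% of all genes), *Lrrc15* (1.55) on the higher side and *Lepr* (-2.60), *Cd55* (-1.83), *Icam1* (-1.54), *Procr* (-1.46) and *Mme* (-1.43) on the lower. Of 28 relatives there, 2 were higher and 6 lower, with *Glipr1* (1.20) and *Ccl11* (-2.48) at the ends. The list medians in these 3 comparisons ran from -0.35 to 0.0043, beside -0.052 to -0.0019 over all genes.

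As a description of likeness, Pearson's r of log2(CPM + 1) was taken over 45 sums of a library and class with at least 20 cells, among 8014 genes. The sums share libraries, depth and gates, and no test is given. *Pi16* and *Dpp4* were each among the 3 genes most like the other (r = 0.88), beside *Engase* (0.91) and *Lgi2* (0.89) for *Pi16* and *Islr2* (0.91) and *Tek* (0.89) for *Dpp4*. *Cd34* was most like *Clip4*, *Clec3b* and *Mfap5* (all 0.91), *Thy1* like *Meg3* (0.91), *Tmsb10* (0.90) and *Adgra2* (0.88), and *Cd248* like *Axl* (0.89), *Cdc42ep2* (0.89) and *Heg1* (0.88). *Ly6a* was most like its neighbour *Ly6c1* (0.98), then *Htra3* (0.93) and *Ramp2* (0.92). *Pdpn* was most like the H2BGFP reporter row (0.88), then *Dnm1* (0.84), *Fap* like *Epdr1* (0.90), *Fxyd1* (0.86) and *Ergic3* (0.86), and *Pdgfrb* like *Col15a1* (0.88), *Mgp* (0.87) and *Tmsb10* (0.85). Among pairs of the 9 genes, *Cd34* and *Ly6a* (0.83), *Cd34* and *Dpp4* (0.82) and *Thy1* and *Pdgfrb* (0.82) followed, and *Thy1* and *Cd34*, the usual sublining pair, had r = 0.59. *Pdpn* and *Pdgfrb* had r = -0.36.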

How the data were processed

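Knees of steady-state and injured mice gave 9 single-cell libraries (10x 5' kit, NextSeq 500). The deposited values are raw counts of UMIs per gene and cell barcode, made by the authors with Cell Ranger on GRCm38.p6 per the submitters' processing notes, with no normalization. The headers of 5 matrices name version 3.0.2, and the version of the other 4 was not given in the sources used here. Each library is a Tom+ or Tom-GFP+ sort from the labels, and no column was left unused.

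Cells were kept from 500 genes and 1000 UMIs upward where mitochondrial UMIs did not exceed 10%. A cell was gated by the summed UMIs of a marker list per 10000 UMIs of the cell and by the number of its markers detected. The lining gate needed 100 and 3 markers, the endothelial gate 5 and 3, the adipocyte gate 20 and 1, and each other class 20 and 3. Sublining fibroblasts met no other gate, stayed under 50 on the lining list and reached 20 and 3 on the fibroblast list. Within them, the universal gate needed 20 and 4 markers and the activation gate 30 and 3. No doublet caller was run, and 69 cells in several gates were set aside. Few UMIs limit the precision of *Dpp4* and of the small classes. The Poisson intervals given for the Tom-GFP+ steady-state library cover counting error only. Intervals of fold changes come from the edgeR fit and use its estimate of the spread between libraries.

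UMIs were summed per library and class (at least 20 cells, or 10 for the lining and gate comparisons) and tested with edgeR 4.0.16 (quasi-likelihood, TMM, filterByExpr) in R 4.3.3 over all genes, with Benjamini-Hochberg adjustment. Sorts and states shared 1 estimate of the spread, and lining, universal and activation comparisons had the library as a block. The procedure was tested on simulated data in which every gene had the same spread, which genes in the real data need not share. The outcome of that test is not given here. Alternatives were DESeq2 1.42.0, edgeR with RLE size factors, no filter on low counts, stricter cell filters and gates, classes from Seurat 5.3.0 clusters, no cells in cycle, a replicate block, the gene list format as a covariate and each library left out. The fits within gates were chosen after seeing the data. Gene positions are from GENCODE vM21 and promoters from RefSeq.

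The 9 genes, the wider lists and the naming rule (all 9 genes, and of each wider list the called genes among the 6 largest changes) were chosen with earlier results of these data known, among them the fall of *Thy1* and *Cd34*, which is therefore not independent evidence. Of the genes most like each of the 9, 1 is not reported here.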

Additional observations from a re-analysis of the deposited data

Results flagged for a closer look

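Of 45 sets of 4 Tom+ injured libraries tested for a library far from the rest (each gene in each of the sublining gates and the sublining and lining classes), 3 were flagged, where chance flags about 1 in 20. In each the gap to the nearest library, divided by the whole range, was above the 95% critical value of Dixon's test for 4 values, and in each the distant library was Tom+ injured replicate 4. In universal-marker cells *Cd34* was at 1297 CPM there and at 998 to 1031 CPM in the others (ratio 0.890). In activation-marker cells *Pi16* was at 180 CPM there and at 6.18 to 18.8 CPM in the others (ratio 0.927). In cells of neither gate *Dpp4* was at 15.8 CPM there and at 8.24 to 8.63 CPM in the others (ratio 0.949). No explanation was tested.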

How the results depend on the processing

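Of 1312 values of the 9 genes under alternatives, 1229 kept their direction or stayed uncalled on the same side of the threshold, 49 lost a call, 32 gained one and 2 reversed. Both reversals came in Tom+ sublining cells of neither gate, where *Pi16* had a log2 fold change of 0.93 and *Dpp4* one of 0.47, neither called. The cause was not tested. *Thy1* in the Tom+ sublining passed in 9 alternatives, among them RLE size factors (adjusted p = 0.038) and classes from clusters (0.028).

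The number of genes called changed by over 1.5 times in these cases. Tom+ injury in the sublining gave 1050 genes over cells of neither gate and 267 over universal-marker cells, against 2176, and 308 to 2266 without 1 library. Tom-GFP+ injury gave 584 with DESeq2, 655 with no filter, 201 with classes from clusters, 481 without cells in cycle, 547 with the format covariate and 124 in universal-marker cells, against 317, and 7 to 1279 without 1 library. With the format covariate *Cd34*, *Dpp4* and *Pi16* were called in that sort (edgeR adjusted p = 0.036, 0.026 and 0.0057), as they were without Tom+ injured replicate 1. These settings are not separate evidence, and the covariate cannot part format from state in that sort, where the 2 coincide. It was set only by Tom+ injured replicate 1 (older format) against Tom+ injured replicates 2 to 4 (newer format). Of the surface marker values refitted with the covariate, over all comparisons, 3 gained a call, 1 lost its call and 39 stayed the same. Which value lost its call is not given here. The interaction gave 1 with DESeq2 and 1 with no filter, against 0. Injured sorts gave 57 with DESeq2, 49 with no filter, 1 with clusters and 7 without cells in cycle, against 3, and 0 to 17 without 1 library. Steady-state sorts gave 31 with DESeq2 and 12 with no filter, against 2, and 0 to 27 without 1 library. Tom+ lining gave 70 with the format covariate, against 396, and 27 to 585 without 1 library. The universal gate gave 917 with stricter gates against 2086, and the activation gate 1067 with DESeq2 and 3023 with clusters against 1839, with 1224 to 1664 without 1 library.

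With a replicate block the counts were 1889 for Tom+ sublining injury, 5 for the injured sorts and 190 for Tom+ lining injury. *Ly6a* was then called lower in the Tom+ sublining (log2 -1.02, adjusted p = 0.034) and *Pdpn* higher in the lining (1.20, 0.035), while *Cd248* in the lining lost its call (0.094). The deviations of same-numbered sublining libraries from their group means had r of 0.061 and 0.13 between Tom+ states, 0.29 and 0.072 between the injured sorts, and -0.048 for both Tom+ steady and Tom-GFP+ injured pairs. In a group of 2 libraries the deviations are opposite by construction, so the 2 values of -0.048 are 1 value repeated. The highest r, 0.39, was between Tom+ injured replicate 4 and Tom-GFP+ injured replicate 2, so the numbers were not taken to pair the libraries. Without Tom-GFP+ steady replicate 1 the comparisons that need it could not be fitted. Shares of cells moved with the thinning depth, for example *Thy1* in the steady-state sublining (mean over 3 libraries) from 48.2% at 3000 UMIs to 63.3% at 5000 UMIs and 69.0% with none. Precision is limited by 2 and 1 steady-state libraries, few lining cells in steady state and low UMI counts of *Dpp4*.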
